A study of Mus musculus with 6 samples.

Results

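Thrombospondins are large secreted glycoproteins that sit in the extracellular matrix and bind receptors on nearby cells. The family genes Thbs1, Thbs2, Thbs3, Thbs4 and Comp, together with the receptor genes Cd36 and Cd47, were followed in a mouse mast cell line. These 7 genes were looked up by symbol among the 49568 genes of the deposited count table, and each symbol was found. The starting gene was chosen by its measured levels: Thbs2 was selected because each rPTH library lay above each control library in CPM, and the other 6 were taken as its family and receptors. The contrast that chose Thbs2 cannot also test it, so fold changes of the members are given as descriptions.

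Thrombospondin 1 and thrombospondin 2 form trimers and carry type 1 repeats, which bind CD36, a scavenger receptor that also takes up fatty acids and oxidised lipids. Thrombospondin 3, thrombospondin 4 and cartilage oligomeric matrix protein, the product of Comp, form pentamers and lack these repeats. The C-terminal part of thrombospondin 1 binds CD47, a widely expressed membrane protein that is also the ligand of the phagocyte receptor SIRP-alpha. Thrombospondin 1 can activate latent TGF-beta, thrombospondin 2 is known from mouse work to shape collagen fibrils and to limit vessel growth, and both are made by fibroblasts and osteoblast-lineage cells.

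The rPTH group held 3 libraries of MC/9, a mouse mast cell line, labelled as exposed to 10 nM rPTH over 24 h, and it was set against 3 MC/9 libraries labelled as untreated controls. The design text places the mast cells in culture on 7F2, a mouse osteoblast line, before they were taken off for RNA. It does not say whether the controls had the same osteoblasts under them. The abbreviation rPTH is not spelled out, and the treatment protocol field names it for all 6 libraries, while the characteristics of the controls give no treatment. Both lines are single established lines, and nothing in the labels says that replicates came from separate cultures, so the spread between replicates may be technical.

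Levels are given in CPM, a count divided by its library total and scaled up by a constant. Total counts were 30623648 to 33577977 in rPTH libraries and 22282095 to 24993606 in control libraries. A count of 0 allows up to 3 counts, or 0.0893 to 0.0980 CPM in rPTH libraries and 0.120 to 0.135 CPM in control libraries, which covers counting error only. Totals were further scaled by TMM factors, which were 1.03 to 1.06 except for 0.810 in control 1, unless a value is said to be by library totals. Mast cell transcripts were abundant: the granule protease Cpa3 averaged 1867 ± 252 CPM in rPTH libraries and 2125 ± 448 CPM in control libraries (SD, n = 3 each). The chymase gene Mcpt4 had 1 to 4 counts in rPTH libraries and 0 to 4 in control libraries. With edgeR's quasi-likelihood test, 0 of 16696 genes (0%) had an adjusted p under 0.05, so that no member passed. At an unadjusted p under 0.05 there were 1314 genes (7.87%), and adjusted calls were likewise 0 by DESeq2 (1995 unadjusted) and by limma-voom (863 unadjusted).

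**Figure D1:**
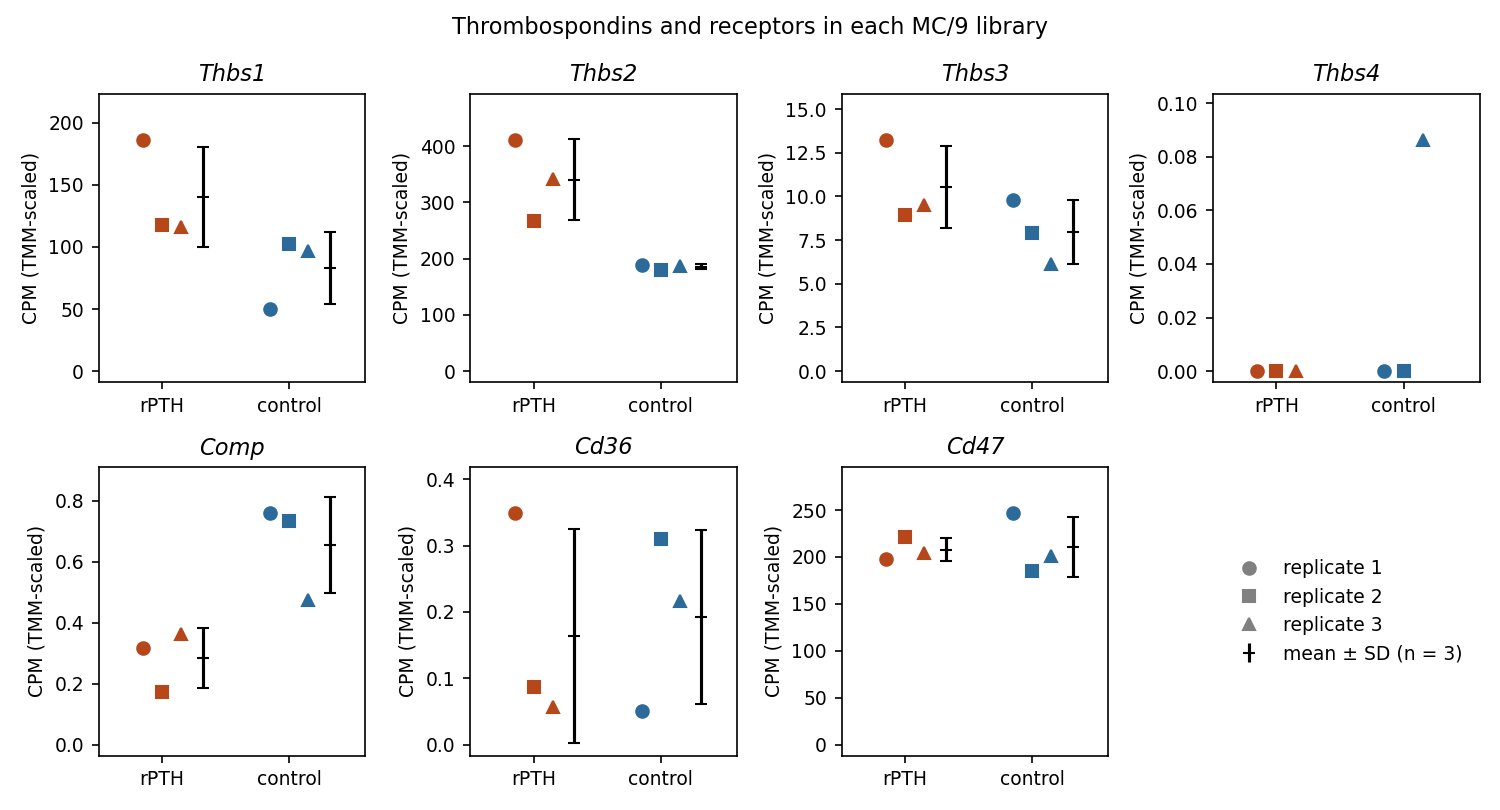
Level of each member in each library, in TMM-scaled CPM on axes that differ between genes, with rPTH libraries left of control libraries; bars give the mean and SD of 3 libraries and were left out for Thbs4, which had 2 counts in all. Thbs1 and Thbs2 have all rPTH points above all control points, Comp has them below, and Thbs3, Cd36 and Cd47 overlap.

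Promoter sequence was read for Thbs2, the member with the largest upward fold change, and for Cd47, the most evenly expressed one, so that the start regions of a member that differed and one that overlapped between groups can be seen side by side. The set of RefSeq promoters on GRCm38.p6 that was at hand held 5 of the 7 members. It had no entry for Thbs1 and Comp, which says nothing of RefSeq itself. The stretches are the 250 bases before the RefSeq start, chr17:14694263-14694512 on the minus strand for Thbs2 and chr16:49855404-49855653 on the plus strand for Cd47. Where a gene had several entries, the first by position was taken. The Cd47 stretch lies inside the span that GENCODE gives this gene, which starts at 49800533, so the annotations differ in its start. Capitals mark matches, on either strand, to any of 4 motifs. The first was TGACG, which is known as the half-site of the cAMP response element. Another was CCAAT, the box bound by the factor NF-Y in many promoters. The GC box was searched as GGGCGG, and the core promoter element called the TATA box was searched with the letters TATAAA. Matched letters did not overlap in either stretch, and the pair of half-sites in Cd47 adjoin each other.
Thbs2: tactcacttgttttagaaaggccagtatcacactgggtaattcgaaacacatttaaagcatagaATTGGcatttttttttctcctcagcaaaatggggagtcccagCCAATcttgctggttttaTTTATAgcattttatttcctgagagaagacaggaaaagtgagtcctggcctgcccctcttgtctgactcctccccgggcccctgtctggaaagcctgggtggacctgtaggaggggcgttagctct
Cd47: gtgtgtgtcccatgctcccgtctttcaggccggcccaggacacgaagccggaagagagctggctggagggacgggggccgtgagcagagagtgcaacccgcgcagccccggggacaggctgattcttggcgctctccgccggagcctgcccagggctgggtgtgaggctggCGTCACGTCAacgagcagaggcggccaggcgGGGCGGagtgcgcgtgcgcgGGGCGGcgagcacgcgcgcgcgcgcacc
The Thbs2 stretch held 2 matches to the CCAAT box and 1 to the TATA box and none to the other motifs, at a GC content of 46.8%. The Cd47 stretch held 2 half-sites and 2 GC boxes and no match to the others, at a GC content of 73.2%. The background was 32536 RefSeq promoters of the same length, with 1 chromosome left out and identical stretches counted once. Of these, the half-site was in 17.9%, the CCAAT box in 33.8%, the GC box in 33.0% and the TATA box in 12.3%. These are letter matches within the window and say nothing of which factors bind there.

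Among the trimer-forming thrombospondins, Thbs2 was the more abundant. Thbs2 had 412, 268 and 342 CPM in rPTH 1, 2 and 3, against 190, 181 and 186 CPM in control 1, 2 and 3. The control libraries lay within a few CPM of each other, the rPTH libraries were spread out with rPTH 1 highest, and the groups did not overlap. By library totals the values were 424, 281 and 364 CPM in rPTH 1, 2 and 3, against 154, 187 and 194 CPM in control 1, 2 and 3. The groups did not overlap there either, but control 1 was lowest, so the narrow range of the controls depended on the scaling. The group means were 340 ± 71.9 CPM in rPTH libraries and 185 ± 4.58 CPM in control libraries (SD, n = 3 each). On the log2 scale the fold change was 0.88 ± 0.20 (SE). All rPTH libraries lay above all controls for 8.35% of the tested genes, and all lay below for 8.45%. Of the 16696 tested genes, 171 had a larger log2 fold change than Thbs2, 2 of them among the 2324 genes that averaged at least 100 CPM; since Thbs2 was selected on these values, its rank is a description. In GENCODE M21 on GRCm38, Thbs2 (ENSMUSG00000023885.9) spans chromosome 17 from 14665500 to 14694235 on the minus strand, with 7003 exon bases.

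Thbs1, which encodes thrombospondin 1, had 186, 118 and 116 CPM in rPTH 1, 2 and 3, against 49.6, 103 and 97.1 CPM in control 1, 2 and 3. The groups did not overlap, but rPTH 2 and 3 lay only a little above control 2 and 3, and the ends of the range were rPTH 1 and control 1. The log2 fold change was 0.75 ± 0.33 (SE), a 1.69-fold higher level with a 95% interval of 0.98- to 2.90-fold. Without control 1 the log2 fold change was 0.47 and without rPTH 1 it was 0.49, so each of these libraries moved it by more than 1.5 times. Per Thbs1 count there were 2.21, 2.27 and 2.94 Thbs2 counts in rPTH 1, 2 and 3, and 3.82, 1.76 and 1.92 in control 1, 2 and 3. Control 1 thus held less Thbs1 relative to Thbs2 than control 2 and 3 did, whatever the scaling. Thbs1 (ENSMUSG00000040152.8) spans chromosome 2 from 118111876 to 118127133 on the plus strand; it shares 208 exon bases with the antisense lincRNA gene Gm29233, which had 0 to 2 counts per library.

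Of the pentamer-forming members, Thbs3 alone was readily detected. Thbs3 had 13.2, 8.95 and 9.49 CPM in rPTH 1, 2 and 3, against 9.82, 7.89 and 6.13 CPM in control 1, 2 and 3. Control 1 lay above rPTH 2 and 3, so the groups overlapped, and only rPTH 1 stood above all controls. When scaled by library totals, the values were 13.6, 9.38 and 10.1 CPM in rPTH 1, 2 and 3 and 7.95, 8.16 and 6.37 CPM in control 1, 2 and 3, which did not overlap, so the separation depended on the scaling. The log2 fold change was 0.41 ± 0.26 (SE) over all libraries and 0.22 without rPTH 1. Thbs3 (ENSMUSG00000028047.11) spans chromosome 3 from 89215180 to 89226837 on the plus strand and shares 318 exon bases with Mtx1, a gene on the other strand for a mitochondrial import protein. Mtx1 had 21.7, 21.2 and 21.6 CPM in rPTH 1, 2 and 3, and 47.2, 21.2 and 21.6 CPM in control 1, 2 and 3. No source used here gives the strand setting with which reads were counted, and the part of Mtx1 reads in the Thbs3 counts was not tested.

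Comp had few reads and went the other way. Its counts were 10, 6 and 13 in rPTH 1, 2 and 3, against 15, 19 and 11 in control 1, 2 and 3. In CPM these were 0.317, 0.174 and 0.364 in rPTH 1, 2 and 3 and 0.759, 0.735 and 0.475 in control 1, 2 and 3. The groups did not overlap in CPM, although rPTH 3 had more raw counts than control 3, because the rPTH libraries were deeper. The log2 fold change was -1.19 ± 0.44 (SE), and it ran from -1.41 (without rPTH 3) to -0.94 (without rPTH 2) when single libraries were left out. Comp passed the filter on low counts through the control libraries, where it was higher, so its fold change and sign are descriptions. Comp (ENSMUSG00000031849.9) lies on chromosome 8 from 70373558 to 70382066. Thbs4 (ENSMUSG00000021702.7, chromosome 13 from 92751590 to 92794818) had 0 counts in all rPTH libraries and 0, 0 and 2 counts in control 1, 2 and 3, and was too low to test.

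The receptors differed in abundance by orders of magnitude. Cd36 had 11, 3 and 2 counts in rPTH 1, 2 and 3, against 1, 8 and 5 counts in control 1, 2 and 3, and did not pass the filter on low counts. The groups overlapped and 3 of the 6 libraries held no more than the 3 counts that a count of 0 allows, so no fold is given. Cd47 had 198, 221 and 204 CPM in rPTH 1, 2 and 3, against 247, 185 and 202 CPM in control 1, 2 and 3. The highest and the lowest library were both controls, and the groups overlapped. The log2 fold change was -0.02 ± 0.18 (SE), with a 95% interval of 0.739- to 1.31-fold for the ratio of rPTH to control. Its sign depended on the scaling, as it was 0.043 with DESeq2 size factors and 0.12 with library totals. Cd36 (ENSMUSG00000002944.15) spans chromosome 5 from 17781690 to 17888801 and Cd47 (ENSMUSG00000055447.19) chromosome 16 from 49800533 to 49915010.

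Of the 7 members, 5 passed the filter on low counts: Thbs1, Thbs2, Thbs3, Comp and Cd47. The adjusted p of the 4 other than Thbs2, from edgeR's quasi-likelihood test over all genes, ran from 0.619 to 0.959. For the picking criterion itself, the lowest rPTH library of Thbs2 lay at 268 CPM above a highest control of 190 CPM. Thbs1 was just inside, with 116 CPM in its lowest rPTH library against 103 CPM in its highest control, and Thbs3 just outside, with 8.95 CPM in its lowest rPTH library against 9.82 CPM in its highest control. The authors' deposited table lists log2 fold changes of 0.89 for Thbs2, 0.67 for Thbs1, 0.44 for Thbs3, 0.06 for Cd47 and -0.72 for Comp. An adjusted p under 0.05 is listed for 11 of 15559 genes (0.0707%) in the authors' deposited table; 1 member, Thbs2, is among them, but it was selected on the same counts, so nothing is read from that.

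Per kilobase of exon, levels can be set between genes. In rPTH libraries Thbs2 ranked first at 48.6 ± 10.3 CPM per kilobase, followed by Cd47 at 33.1 ± 1.92 and Thbs1 at 23.1 ± 6.59 (SD, n = 3 each). In control libraries Cd47 ranked first at 33.6 ± 5.08 CPM per kilobase, followed by Thbs2 at 26.5 ± 0.654 and Thbs1 at 13.7 ± 4.8. Neighbouring members among these did not overlap in either group, although in rPTH libraries the highest Thbs1 level, 30.7 CPM per kilobase, came close to the lowest Cd47 level, 31.5. Thbs3 lay far below at 2.19 ± 0.485 CPM per kilobase in rPTH libraries and 1.65 ± 0.382 in control libraries. Comp and Cd36 were lower still, at 0.0960 ± 0.0334 and 0.0456 ± 0.0448 CPM per kilobase in rPTH libraries, where they overlapped, and at 0.221 ± 0.0530 and 0.0535 ± 0.0365 in control libraries, where they did not. The exon length merges all annotated transcripts of a gene, so these levels shift where only some transcripts are made.

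**Figure D2:**
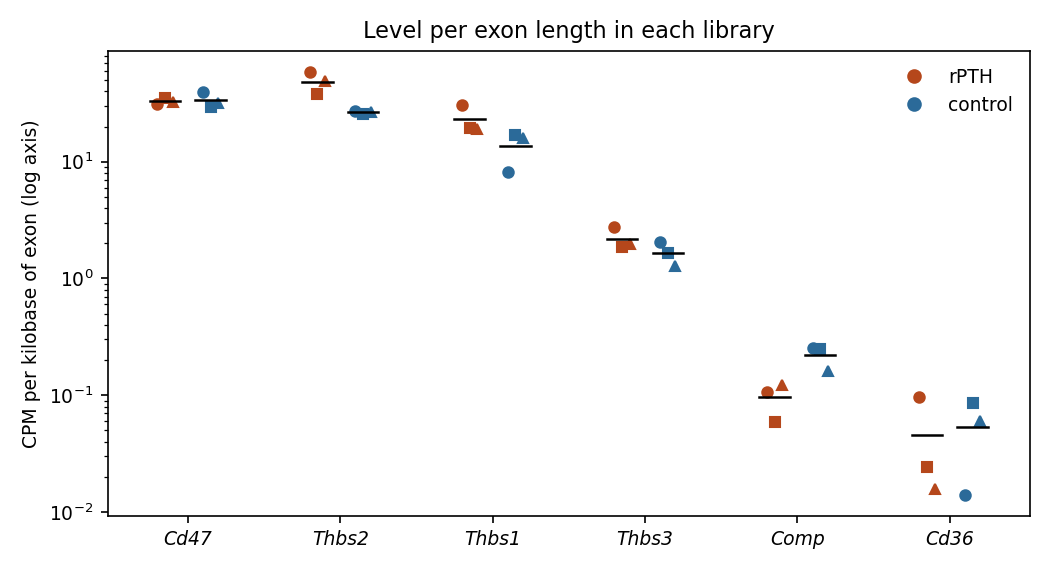
CPM per kilobase of merged exons on a log axis for 6 members, ordered by their control level, with rPTH libraries left of control libraries; points are libraries and short lines are means. Thbs2 lies above Cd47 with rPTH and below it in controls, while Comp and Cd36 sit well under Thbs3; Thbs4 is not drawn because 5 of its libraries had 0 counts.

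Transcripts of most osteoblast and stromal markers were present in every library, and their sum moved with Thbs2. Which cells made them was not tested. The 31 osteoblast and stromal markers, such as the collagen chain Col1a1 and the cross-linking enzyme Lox, summed to 3007, 1936 and 2071 CPM by library totals in rPTH 1, 2 and 3, against 1372, 1539 and 1482 CPM in control 1, 2 and 3. All rPTH libraries were above all controls and rPTH 1 was highest, as for Thbs2 and Thbs1; Thbs3 did so by library totals but overlapped with TMM scaling. The means were 2338 ± 583 CPM in rPTH libraries and 1464 ± 84.9 CPM in control libraries (SD, n = 3 each), and their difference had p = 0.1 in an exact permutation test (two-sided), the smallest value that 3 against 3 libraries can give. Without rPTH 1 the difference of 873 CPM was 539 CPM. In RNA from pooled cells, more cells making these transcripts cannot be told apart from more of the transcripts per cell, whichever cells made them. Of the 24 markers tested, 22 were on the higher side with rPTH, the median log2 fold change being 0.55 (0.34 without rPTH 1). The log2 fold changes of 2 exceeded that of Thbs2. These were the osteoblast transcription factor Sp7 (1.00), which had few reads, and Lox (0.97). At an unadjusted p under 0.05, 12 of the 24 were higher and 0 lower, against 1.98% and 5.89% of all tested genes, whose median log2 fold change was -0.09. The most abundant markers were the proteoglycan Bgn (633 ± 157 CPM in rPTH libraries and 466 ± 94.6 CPM in control libraries), Col1a1 (217 ± 72.1 CPM with rPTH and 155 ± 15.4 CPM in controls), Col5a2 (180 ± 43.4 CPM with rPTH and 127 ± 10.2 CPM in controls) and Col1a2 (171 ± 43.1 CPM with rPTH and 109 ± 10.3 CPM in controls). The 7 markers too low to test were Bglap, Bglap2, Ibsp, Dmp1, Lum, Dcn and Thy1, each with under 10 counts in every library. They thus included the stromal genes Dcn, Lum and Thy1 as well as mature osteoblast genes. Of the latter, Bglap had 4 to 5 counts in rPTH libraries and 1 to 5 in control libraries, and Ibsp had 0 to 1 counts in both groups.

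Set against the stromal signal, the thrombospondins differed from each other. Per 100 stromal marker counts, Thbs2 had 14.1, 14.5 and 17.6 counts in rPTH 1, 2 and 3, against 11.2, 12.1 and 13.1 counts in control 1, 2 and 3. These values did not overlap, and their ratio of means, 1.27, was smaller than the 1.84 of the Thbs2 level itself. Thbs2 was selected for lying above all controls, so this separation is a description. Setting it beside genes that were not selected tests nothing. When each of the 24 tested markers was counted per 100 counts of the other markers, 1 lay higher in all rPTH libraries, Lox, and 1 lay lower, the transcription factor gene Twist1. The ratios of means ran from 0.649 to 1.41, and those of Lox and Sp7 were above that of Thbs2. The 1.41 was that of Sp7, which had few reads. It had 0.0337, 0.0518 and 0.0345 counts per 100 in rPTH 1, 2 and 3, against 0.0209, 0.0338 and 0.0303 in control 1, 2 and 3, which overlapped. Thbs1 had 6.38, 6.38 and 5.97 counts per 100 stromal marker counts in rPTH 1, 2 and 3, against 2.93, 6.90 and 6.81 in control 1, 2 and 3. Outside control 1 the Thbs1 share was thus slightly lower with rPTH, and the groups overlapped. Thbs3 had 0.454, 0.484 and 0.487 counts per 100 in rPTH 1, 2 and 3, against 0.580, 0.530 and 0.430 in control 1, 2 and 3, which overlapped. Which cells the thrombospondin transcripts came from was not tested.

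**Figure D3:**
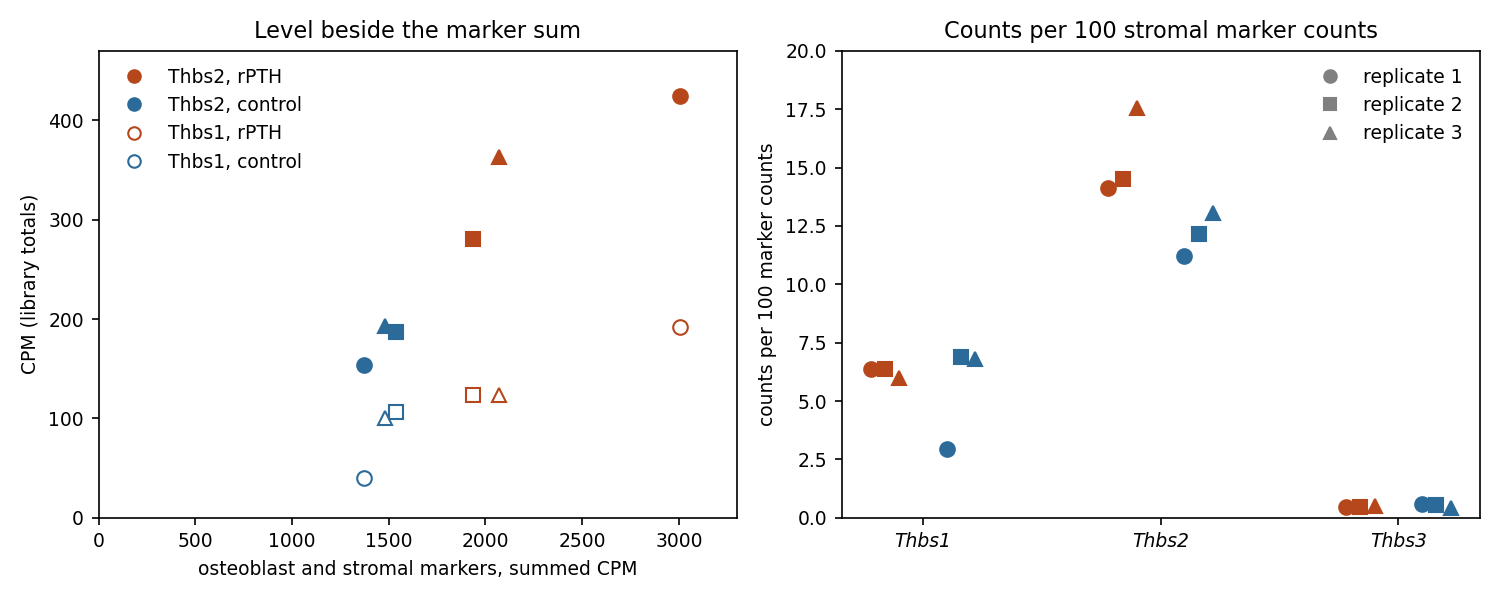
Left, CPM by library totals of Thbs2 (filled) and Thbs1 (open) against the total CPM of 31 stromal and osteoblast markers, 1 point per library. Right, counts of Thbs1, Thbs2 and Thbs3 per 100 stromal marker counts, rPTH libraries left of control libraries; Thbs2 runs from 14.1 to 17.6 with rPTH and from 11.2 to 13.1 in controls, while the other members overlap.

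Mast cell markers did not show this pattern. The 13 markers summed to 6611, 8718 and 8380 CPM by library totals in rPTH 1, 2 and 3, against 7828, 8225 and 8283 CPM in control 1, 2 and 3, so that rPTH 1, the library richest in Thbs2 and stromal markers, was lowest. Their median log2 fold change was -0.23 over 12 tested, and it was -0.076 without control 1, -0.11 without rPTH 1 and -0.075 with library totals. At an unadjusted p under 0.05, 0 of the 12 were higher and 1 lower, against 1.98% and 5.89% of all tested genes. All rPTH libraries lay above all controls for 0 and below for 3, against 8.35% and 8.45% of all tested genes. Of these 3, Gata2 overlapped by library totals. The most abundant after Cpa3 were the IgE receptor chain Fcer1a (1365 ± 267 CPM in rPTH libraries and 1603 ± 407 CPM in control libraries), the transcription factor Gata2 (932 ± 97.2 CPM with rPTH and 1105 ± 65.3 CPM in controls) and the interleukin receptor Il1rl1 (947 ± 117 CPM with rPTH and 840 ± 264 CPM in controls). Per 100 mast cell marker counts there were 3.08, 2.66 and 2.59 Cd47 counts in rPTH 1, 2 and 3 and 2.55, 2.33 and 2.53 in control 1, 2 and 3, which by this measure did not overlap.

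Markers of other cells that make or bind thrombospondins were mostly low, with a few abundant exceptions. Platelets store thrombospondin 1; of 10 megakaryocyte and platelet markers the integrin chain Itga2b (507 ± 58.1 CPM in rPTH libraries and 650 ± 102 CPM in control libraries) and the glycoprotein gene Gp1ba (41.9 ± 7.70 CPM with rPTH and 43.2 ± 6.11 CPM in controls) were expressed, while the platelet chemokine Pf4 had 0 to 2 counts per library, and Gp5 and Gp9 averaged 0.937 and 0.749 CPM with rPTH and 1.03 and 0.881 CPM in controls. The list summed to 494 to 647 CPM by library totals in rPTH libraries and 635 to 696 CPM in control libraries. Of 10 endothelial markers, Pecam1 had 173 ± 23.9 CPM in rPTH libraries and 189 ± 10.4 CPM in control libraries, Vwf, Tek and Kdr averaged under 2 CPM, and Cdh5 had 1 to 4 counts per library; the sums were 154 to 206 CPM with rPTH and 150 to 212 CPM in controls. Of 10 macrophage markers, Fcgr1 had 17.9 ± 2.53 CPM in rPTH libraries and 24.4 ± 6.13 CPM in control libraries, Cd14 10.997 ± 1.25 CPM with rPTH and 11.02 ± 5.27 CPM in controls, Cd68 3.14 ± 0.0683 CPM with rPTH and 3.12 ± 0.365 CPM in controls, and Mrc1 0.886 ± 0.519 CPM with rPTH and 0.920 ± 0.0959 CPM in controls. C1qa had 0 counts in rPTH libraries and 0 to 1 in control libraries, and the macrophage sums were 34.03 to 37.2 CPM with rPTH and 34.5 to 43.3 CPM in controls. Adipocytes are rich in CD36; of their 10 markers Adipor2 had 143 ± 8.68 CPM in rPTH libraries and 140 ± 15.9 CPM in control libraries, Lpl 53.5 ± 15.2 CPM with rPTH and 34.1 ± 9.17 CPM in controls, Fabp4 17.3 ± 4.26 CPM with rPTH and 19.3 ± 12.9 CPM in controls, and Pparg 11.1 ± 4.02 CPM with rPTH and 9.24 ± 2.78 CPM in controls. Adipoq had 1 to 5 counts and Plin1 1 to 3 counts per library, and the list summed to 226 to 249.3 CPM in rPTH libraries and 173 to 206 CPM in control libraries.

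The wider pathway was read from 5 gene lists with 130 genes, of which 101 were tested and 0 passed over all genes. At an unadjusted p under 0.05, 11 were higher with rPTH (10.9% of those tested, against 1.98% of all genes) and 0 were lower (against 5.89%). Without rPTH 1 the 11 became 2, and without control 1 they became 23. All rPTH libraries lay above all controls for 16 and below for 3 (Tgfb1, Vav1 and the kinase gene Fyn, of which Vav1 and Fyn overlapped by library totals), which is 15.8% and 2.97% of those tested, against 8.35% and 8.45% of all genes. The median log2 fold changes given below also rested on rPTH 1: without it they were 0.11 for receptors and binding partners, -0.016 for CD36 and CD47 signalling, 0.12 for turnover and TGF-beta handling, 0.058 for type 1 repeat proteins and 0.21 for matricellular genes. The stromal markers were higher in the same rPTH libraries, and the part of stromal RNA in their values was not tested.

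Of 20 further receptors and binding partners, 18 were tested, 14 of them above 0, with a median log2 fold change of 0.30, and 0 were at an unadjusted p under 0.05. Cacna2d1, a calcium channel subunit that binds thrombospondins in neurons, had 28.1 ± 9.40 CPM in rPTH libraries and 16.3 ± 5.52 CPM in control libraries. Lrp1, the endocytic receptor that clears thrombospondins, had 238 ± 78.8 CPM in rPTH libraries and 142 ± 53.1 CPM in control libraries. The integrin chains Itgb1 (394 ± 69.7 CPM in rPTH libraries and 299 ± 13.2 CPM in control libraries) and Itgav (82.6 ± 15.1 CPM with rPTH and 55.2 ± 24.9 CPM in controls) also serve as thrombospondin receptors. The groups did not overlap for Cacna2d1, Itgb1 and Itgav, and did for Lrp1. All rPTH libraries lay above all controls for 8.35% of all tested genes. Control 1, 2 and 3 had 9.97, 19.8 and 19.2 CPM of Cacna2d1, against 22.4 CPM in its lowest rPTH library. For Itgav they had 26.6, 71.3 and 67.7 CPM, against 73.7 CPM, and for Lrp1 81.1, 180 and 164 CPM. Control 1 was thus far below the other controls for these genes, but not for Itgb1 (292, 291 and 314 CPM).

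Of 20 genes of CD36 and CD47 signalling, 17 were tested, 9 of them above 0, with a median of 0.05. The Src-family kinase Yes1 had 21.4 ± 5.18 CPM in rPTH libraries and 13.1 ± 3.04 CPM in control libraries, and the exchange factor Vav3 had 2.17 ± 0.646 CPM with rPTH and 1.11 ± 0.336 CPM in controls; these were the 2 members at an unadjusted p under 0.05. The other 2 of the 4 with the smallest p did not reach an unadjusted p under 0.05. The phosphatase Ptpn6, recruited by SIRP-alpha, had 76.6 ± 10.3 CPM in rPTH libraries and 95.5 ± 15.4 CPM in control libraries, and Vav1 had 81.6 ± 9.14 CPM with rPTH and 97.2 ± 5.91 CPM in controls. Fyn, a Src-family kinase downstream of CD36, had 45.7 ± 0.967 CPM in rPTH libraries and 47.3 ± 1.04 CPM in control libraries.

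All 22 genes of thrombospondin turnover and TGF-beta handling were tested, 17 of them above 0, with a median of 0.30 and 4 higher at an unadjusted p under 0.05. These were the metalloproteinase inhibitor Timp3 (17.9 ± 5.26 CPM in rPTH libraries and 8.59 ± 2.37 CPM in control libraries), the latent TGF-beta binding protein Ltbp1 (59.7 ± 13.9 CPM with rPTH and 38.2 ± 2.32 CPM in controls), the latent TGF-beta anchor Lrrc32 (44.8 ± 11.5 CPM with rPTH and 30.3 ± 2.69 CPM in controls) and the ligand Tgfb2 (3.17 ± 1.24 CPM with rPTH and 1.54 ± 0.474 CPM in controls). The groups overlapped for Tgfb2 and not for the other 3. Tgfb1, the ligand that thrombospondin 1 can activate, had 205 ± 11.7 CPM in rPTH libraries and 270.1 ± 58.6 CPM in control libraries. All rPTH libraries lay below all controls, but narrowly. The highest rPTH library, rPTH 3, had 213.2 CPM against 218.6 CPM in control 3, and 226.7 against 227.1 CPM by library totals. Control 1 was highest at 334 CPM, against 258 CPM in control 2.

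Of 48 other genes for proteins with type 1 repeats, 27 were tested, 19 of them above 0, with a median of 0.15 and 3 higher at an unadjusted p under 0.05. These were the Wnt enhancer Rspo2 (3.06 ± 0.802 CPM in rPTH libraries and 1.53 ± 0.191 CPM in control libraries), the netrin receptor Unc5c (12.5 ± 3.32 CPM with rPTH and 6.42 ± 2.03 CPM in controls) and the aggrecanase Adamts5 (17.1 ± 2.09 CPM with rPTH and 11.6 ± 2.64 CPM in controls). The protease Adamts9, next in order of p, had 28.9, 16.3 and 17.8 CPM in rPTH 1, 2 and 3, against 8.15, 14.9 and 15.8 CPM in control 1, 2 and 3.

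Of 20 other matricellular genes, 17 were tested and all 17 lay above 0 on the log2 scale, from 0.013 to 1.13, the median being 0.44. Tnn, the tenascin of bone-forming tissue, had 1.08 ± 0.416 CPM in rPTH libraries and 0.485 ± 0.198 CPM in control libraries, and the fibulin Fbln2 had 247 ± 62.6 CPM with rPTH and 171 ± 14.9 CPM in controls; both were at an unadjusted p under 0.05. Tenascin C, encoded by Tnc, had 53.6 ± 15.1 CPM in rPTH libraries and 36.5 ± 5.81 CPM in control libraries, and Wisp1, a CCN family member, had 5.44 ± 1.92 CPM with rPTH and 3.41 ± 0.138 CPM in controls. The groups overlapped for Tnc and not for the other 3.

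**Figure D4:**
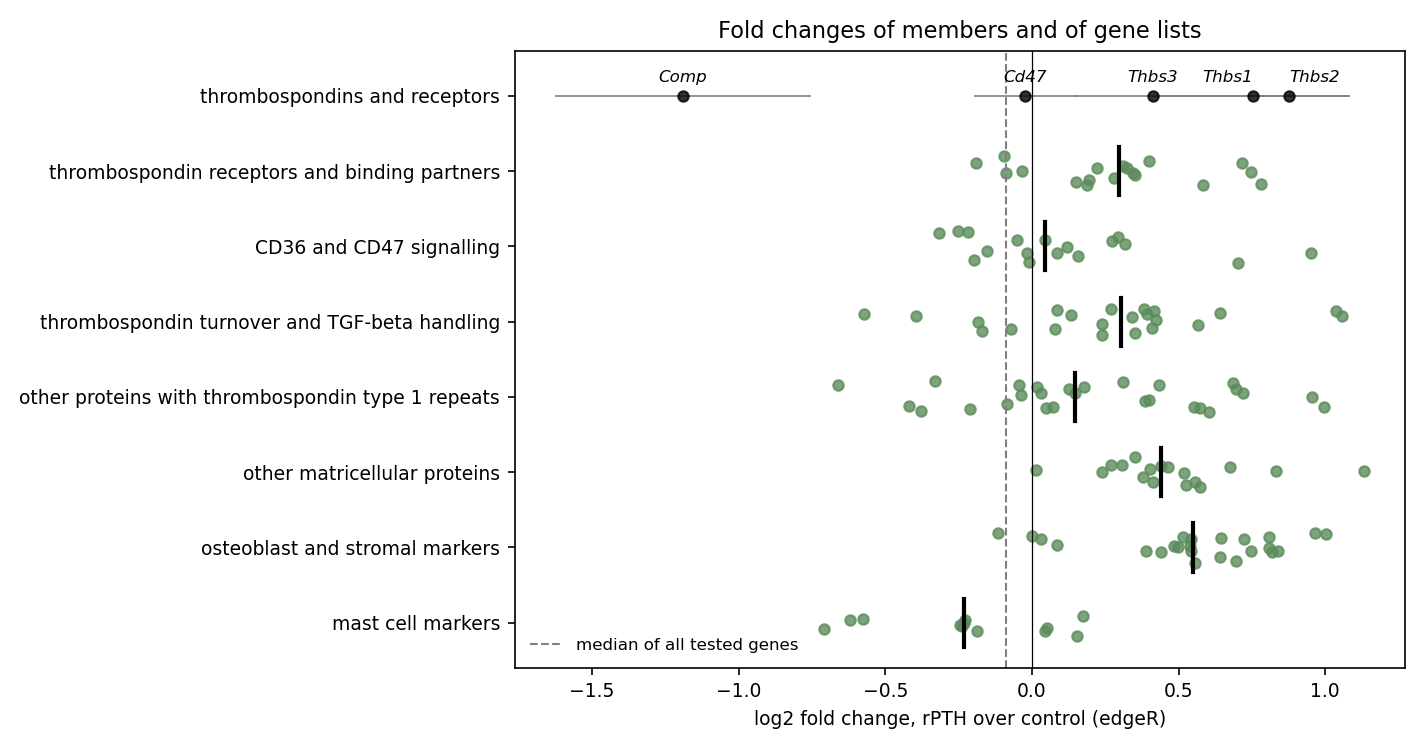
Log2 fold change, rPTH over control, of the 5 tested members (top, with SE) and of the tested genes of the 5 pathway lists and of the stromal and mast cell markers, 1 point per gene with a bar at the list's median; the dashed line is the median of all tested genes, -0.09. Thbs2 and Thbs1 lie in the upper part of the range of the stromal markers, Cd47 near 0 and Comp below the genes of these 7 lists.

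Among 11560 tested genes of at least 5 CPM, the 5 whose log2 levels, centred on their own mean, followed Thbs2 most closely over the 6 libraries were the collagen-binding receptor Antxr1, caveolin Cav1, complement C3, the exchange factor Arhgef10 and the lipid droplet protein Plin4, with root mean square log2 differences of 0.077 to 0.15. Antxr1 had 64.3, 40.3 and 47.2 CPM in rPTH 1, 2 and 3, against 28.8, 29.1 and 29.8 CPM in control 1, 2 and 3. With TMM scaling it shared with Thbs2 the narrow range of the controls and the high value in rPTH 1. For Thbs1 the closest 5 were the endocytic receptor Ly75, the guidance ligand Slit2, Cacna2d1, the complement protease Masp1 and the endoplasmic reticulum enzyme Uggt2, at 0.031 to 0.049. Ly75 had 118, 75.4 and 75.6 CPM in rPTH 1, 2 and 3, against 33.1, 64.5 and 63.3 CPM in control 1, 2 and 3, with the same low control 1. For Cd47 the closest were the processed pseudogene Gm6457, the peroxin Pex2, Nme7, Tmem237 and adenosine kinase Adk, at 0.025 to 0.038, each highest in control 1. Closeness over 6 libraries of 2 groups is a description of these libraries.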

How the data were processed

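RNA of 6 MC/9 libraries was measured by sequencing. Per the submitters' processing notes, the authors used Trimmomatic 0.36, STAR 2.5.2b, Subread 1.5.0p3 with featureCounts, DESeq2 1.12.4 and R 3.3.0; the notes name GRCm38.p5 and mm9 without saying which was used where. The authors deposited whole-number counts per gene with no normalization, a comparison table with log2 fold changes and adjusted p-values, and 2 normalized tables that were not used here. Library totals are in the report and set the precision of low genes.

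Counts were tested with edgeR 4.0.16 (quasi-likelihood, robust, TMM, filterByExpr with minimum count 10, Benjamini-Hochberg over all tested genes, threshold 0.05) in R 4.3.3. The fit was first run on simulated counts with the same variability for every gene, so that run does not measure its power in these libraries. DESeq2 1.42.0, limma 3.58.1 (voom), 2 other scalings, 2 other filters, protein-coding genes alone, a replicate block and each library left out were alternatives. Positions, types and merged exon lengths came from GENCODE M21 (GRCm38), which matched 47313 of 49568 symbols. Likeness used log2(CPM + 0.5).

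The members and lists were chosen with earlier results of these data known. The genes named were the 7 members, the 5 closest genes of each tested member of at least 10 CPM, the 4 genes of smallest p in each pathway list and the 4 most abundant of each marker list; Sp7, Lox, Twist1, Mtx1, Gm29233, Tgfb1, Fyn and markers quoted for being near 0 were named after their values were seen.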

Additional observations from a re-analysis of the deposited data

How the results depend on the processing

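No alternative called any gene (0 in each of 14), while genes at an unadjusted p under 0.05 ran from 272 (without rPTH 1) to 2377 (without the low-count filter), against 1314. The log2 fold changes of Thbs1 (0.47 to 0.94), Thbs2 (0.72 to 1.02) and Thbs3 (0.22 to 0.58) stayed above 0 under all 14 alternatives and that of Comp (-1.41 to -0.94) stayed below 0 under the 13 that could test it. For Thbs1, Thbs2 and Comp the groups did not overlap, so leaving out a library could hardly turn the sign. Thbs2 was selected for that separation, and Comp passed the filter through its controls. Their steady signs are therefore no test. Cd47 changed sign: it was 0.043 with DESeq2 size factors, 0.12 with library totals, 0.065 with DESeq2 and 0.12 without the low-count filter, and ran from -0.12 to 0.092 with single libraries left out; the cause was not tested. Library totals moved the median of all genes by 0.13. The 11 pathway genes higher at an unadjusted p under 0.05 became 18 with library totals, 19 with DESeq2, 22 without the low-count filter and 6 with a replicate block, and 2 (without rPTH 1) to 23 (without control 1) with single libraries left out; those lower were 0 to 1 (without control 1). The median of CD36 and CD47 signalling genes was -0.016 without rPTH 1, against 0.046, and up to 0.17 without control 3. Without rPTH 1 the medians of the other pathway lists and of the stromal markers stayed above 0 but were smaller by over 1.5 times, and the median of type 1 repeat proteins, 0.15, ran from 0.0044 with DESeq2 to 0.39 with a filter of 1 CPM; the cause was not tested. The stromal marker difference ran from 539 to 1075 CPM and the Thbs2 difference per 100 stromal counts from 2.17 to 3.90, against 3.25, with single libraries left out. The labels do not say whether same-numbered libraries were made together. Their deviations from the group means correlated at -0.13, -0.32 and 0.14 for numbers 1, 2 and 3. Differently numbered pairs ran from -0.27 to 0.35. With so few libraries these values cannot show whether the libraries were paired. With the replicate block 0 genes were called, 525 were at an unadjusted p under 0.05, and Thbs2 had a log2 fold change of 0.85. Depth limits Comp, Cd36 and Thbs4, each with at most 19 counts per library.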
